A study of Danio rerio with 25 samples.

Results

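Autophagy receptors and core autophagy genes were examined in larvae of the zebrafish *dmd* model of Duchenne muscular dystrophy and in their WT siblings. The set was named by 10 genes: *calcoco2*, *calcoco1b*, *sqstm1*, *optn*, *map1lc3a*, *map1lc3b*, *gabarapa*, *becn1*, *lamp2* and *ulk1b*. They were chosen because *calcoco2* was clearly lower in *dmd* mutant controls than in WT sibling controls, and the question was whether other autophagy genes followed it. Zebrafish carry 2 genes with the symbol *calcoco1*, and the names used here do not say which is the b copy. Both were kept, as *calcoco1* copy I (ENSDARG00000016391) and *calcoco1* copy II (ENSDARG00000036695), so that 11 of the 32520 genes in the tables were followed. All 11 passed the filter on low counts, as did 25832 genes in all.

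In autophagy a membrane forms around cell contents, closes into an autophagosome and fuses with a lysosome, where the contents are broken down. The ULK1 kinase starts the process, a lipid kinase complex that contains Beclin 1 nucleates the membrane, and small proteins of the Atg8 family (LC3 and GABARAP) are attached to it. Receptors such as p62 and NDP52 bind cargo, often marked with ubiquitin, and tie it to the Atg8 proteins. In muscle this route clears worn mitochondria and protein aggregates, and loss of LAMP2 in humans causes a myopathy with stalled autophagosomes.

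At 7 days post-fertilization (dpf) polyA+ RNA was sequenced from whole larvae, 2 to a library. All larvae came from spawns of *sapje* (*dmd*) carriers of the ta222a allele, and at disease onset they were sorted into mutants and WT siblings by muscle birefringence. The eNMES groups had a session of endurance neuromuscular electrical stimulation at 2, 3 and 4 dpf, and the control groups had none. Counts were examined for 4 WT sibling control, 3 WT sibling eNMES, 8 *dmd* mutant control and 9 *dmd* mutant eNMES libraries. Replicate 1 of the *dmd* mutant eNMES group was not analysed here. Sorting by birefringence does not part heterozygous carriers from other siblings, and larvae were grouped by severity and birefringence change before extraction.

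Library totals lay between 17242201 and 22808348 counts, apart from 7957160 in *dmd* mutant eNMES replicate 8. *dmd* itself, the mutated gene, was measured at 2588 to 5395 normalized counts in WT sibling controls, 3511 to 4599 in WT siblings with eNMES, 1055 to 1324 in *dmd* mutant controls and 1008 to 1435 in *dmd* mutants with eNMES. Markers of neurons, eye, liver, gut, pancreas, skin, cartilage, blood and heart were all detected, as a whole larva should give, so the genes were not read from muscle alone. Libraries also differed in the state of their clock genes. The first component of 32 clock genes held 60% of their variance and was positive in all 4 WT sibling controls (2.11 to 2.74) and negative in all 3 WT siblings with eNMES (-3.30 to -2.56). In WT siblings eNMES and the clock gene state therefore cannot be told apart. Among *dmd* mutants the component was positive in 3 of 8 controls and 4 of 9 eNMES libraries. It followed the replicate number: controls 1 to 5 and eNMES libraries 2 to 6 were negative. Controls 6 to 8 and eNMES libraries 7 to 10 were positive. In mutants the clock gene state therefore cannot be told apart from anything else that ran with the replicate number.

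Per length, the Atg8 genes, *lamp2* and *sqstm1* were the most abundant of the set and *becn1* the least. As mean TPM (read counts scaled for transcript length and library depth) ± SD over the 24 libraries, *map1lc3b* stood at 123 ± 15.9, *lamp2* at 120.0 ± 9.61 and *sqstm1* at 120.0 ± 11.6, which lie within each other's spread. *gabarapa* at 93.4 ± 6.81 TPM and *map1lc3a* at 85.0 ± 9.62 TPM also lay within a spread of each other. *calcoco1* copy II (63.6 ± 8.32 TPM) and copy I (38.1 ± 7.87 TPM) came next and were apart from each other. *calcoco2* (22.9 ± 6.65 TPM), *optn* (21.2 ± 4.71 TPM) and *ulk1* (19.8 ± 2.54 TPM) could not be ordered beyond their spread, and *becn1* was lowest at 12.8 ± 0.945 TPM. Relative to its level *calcoco2* varied most over the 24 libraries, from 12.7 to 40.5 TPM, and *becn1* varied little, from 11.3 to 14.5 TPM. The spread of *calcoco2* includes the difference between control groups for which it was chosen. Within groups the SD of log2 normalized counts was 0.107 to 0.234 for *calcoco2* and 0.103 to 0.329 for *optn*.

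*calcoco2* encodes the receptor known in human cells as NDP52, which binds ubiquitin on invading bacteria and on damaged mitochondria. Its normalized count (counts scaled to the mean library size) was 1151, 1171, 1172 and 1349 in the 4 WT sibling controls. In the 8 *dmd* mutant controls the lowest was 568.9, the median 749 and the highest 846.5. Every *dmd* mutant control lay below every WT sibling control, and this is the difference that chose the set: a log2 fold change of -0.73 (SE 0.0931), or 1.66-fold lower, given as a description. In bulk RNA fewer cells of a type and less RNA per cell cannot be told apart. In WT siblings with eNMES the counts were 1613, 1170 and 1431, and in the 9 *dmd* mutants with eNMES they ran from 794.8 over a median of 966.4 to 1057. The rule that chose the set did not use these 12 libraries, but earlier results of these data were known when it was made.

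Among larvae with eNMES *calcoco2* was again lower in *dmd* mutants, with a log2 fold change of -0.61 (SE 0.10), or 1.53-fold, and an adjusted p of 0.000404 in edgeR's quasi-likelihood test over all genes. All 9 mutant libraries lay below all 3 sibling libraries, and the exact permutation test, two-sided, gave p = 0.00455, the smallest that 220 splits allow. Without any single library the adjusted p stayed between 0.00018 and 0.0164. The size lay between -0.73 and -0.49, and without any of 6 libraries it was under 0.6, the minimum for a call. When only the 5 mutant libraries with a negative clock component were compared with the 3 siblings, *calcoco2* was lower by a log2 fold change of -0.65 (adjusted p = 0.00224). These 5 lay at -2.525 to -0.524 on that component and the siblings at -3.30 to -2.56. Sharing a sign therefore does not match the clock state, whose part was not tested. Fast muscle markers stood higher in the 9 mutant libraries: 16 of 24 passed the test as higher, and their summed normalized counts were 1654036 to 1733633 in siblings and 1797993 to 2298349 in mutants. Of 20 macrophage and neutrophil markers 7 passed as higher. The sums of all 20 were 2865 to 3910 in siblings and 3898 to 7083 in mutants, with 1 marker at 0 in the siblings. Over all genes 6.74% passed as higher. In controls the sums of these 20 markers overlapped, at 4353 to 8848 in siblings and 3592 to 9344 in mutants. Fast muscle sums overlapped there too, at 1719937 to 1905387 in siblings and 1797949 to 2213444 in mutants. Sums of 10 slow muscle markers did not overlap between genotypes. In controls they were 45340 to 48517 in siblings and 50948 to 61782 in mutants. With eNMES they were 49690 to 52966 in siblings and 54297 to 69589 in mutants, and 4 of the 10 passed as higher. The part of these cell types in the result was not tested.

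Within *dmd* mutants *calcoco2* stood higher with eNMES, by a log2 fold change of 0.33 (SE 0.0763), or 1.26-fold, and 6 of the 9 eNMES libraries lay above all 8 controls. Within each clock gene state the log2 fold changes were 0.32 for the positive and 0.33 for the negative libraries. The *dmd* mutant controls of this comparison are the low libraries that chose the set, so these values are a description and carry no test. The same holds for the change in WT siblings, a log2 fold change of 0.21 (SE 0.117), and for the difference of the 2 changes, 0.12 (SE 0.14), which also rest on control libraries used in the choice. Mutants with eNMES remained below WT sibling controls, with a highest count of 1057 against a lowest of 1151.

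**Figure D1:**
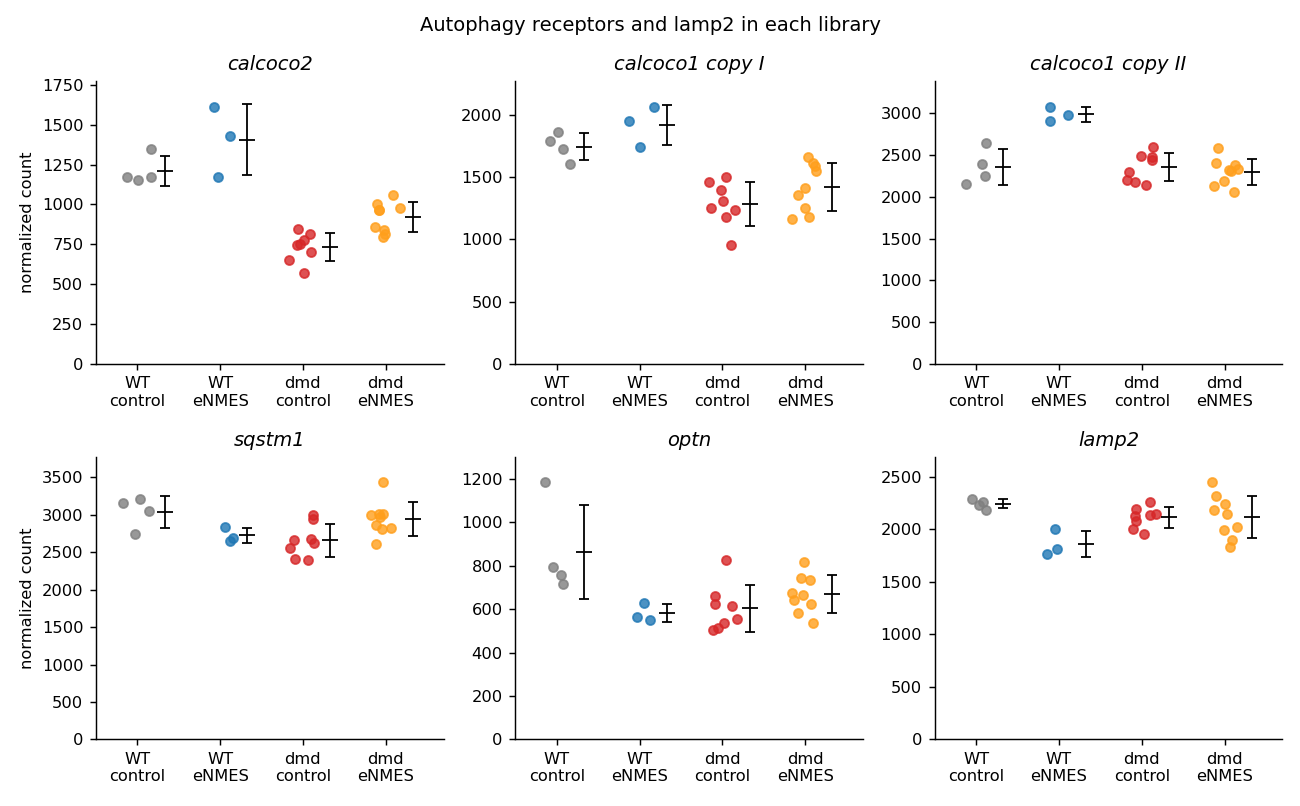
Normalized counts (vertical axes, from 0) of 5 receptors and *lamp2*, with a point for each library and the mean ± SD beside each group (WT control n = 4, WT eNMES n = 3, *dmd* control n = 8, *dmd* eNMES n = 9). *calcoco2* and *calcoco1* copy I lie lower in each *dmd* group than in the WT group of the same treatment, *calcoco1* copy II is high in WT eNMES, and 1 WT control stands alone for *optn* at 1183.

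Both *calcoco1* genes encode proteins related to NDP52, and in human cells CALCOCO1 is a receptor for the endoplasmic reticulum and Golgi. Copy I had counts of 1606, 1725, 1867 and 1788 in WT sibling controls and 1950, 2067 and 1744 in WT siblings with eNMES. In *dmd* mutants its lowest, median and highest counts were 956.6, 1279 and 1505 in controls and 1162, 1415 and 1661 with eNMES. Like *calcoco2*, copy I was lower in every mutant library than in every sibling library of the same treatment. In controls the log2 fold change was -0.44 (SE 0.102), as a description. With eNMES it was -0.435 (SE 0.11), or 1.35-fold lower, with an adjusted p of 0.0157 in edgeR and an exact permutation p of 0.00909. Without WT sibling eNMES replicate 2 the difference missed the threshold, at -0.38 and an adjusted p of 0.108. With only mutant libraries of a negative clock component, which does not match the clock state of the siblings, the adjusted p was 0.0341. The change with eNMES was 0.14 (SE 0.128) in siblings and 0.14 (SE 0.0823) in mutants, with adjusted p-values of 0.642 and 0.579.

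*calcoco1* copy II did not share that pattern. Its counts were 2150, 2643, 2387 and 2247 in WT sibling controls and 2904, 2978 and 3079 in WT siblings with eNMES. In *dmd* mutants they were 2140, 2368 and 2591 (lowest, median, highest) in controls and 2056, 2323 and 2582 with eNMES. The 3 WT siblings with eNMES were the highest of all 24 libraries, and the other 3 groups overlapped. Without eNMES the genotypes stood at a log2 difference of -0.002 (SE 0.0634). With eNMES copy II was lower in mutants by a log2 fold change of -0.38 (SE 0.0676, adjusted p = 0.00102, edgeR), in 9 of 9 libraries, and this held without any single library (adjusted p 0.000579 to 0.0176).

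In WT siblings copy II rose by 0.34 (SE 0.0786, 1.27-fold, adjusted p = 0.0186). In mutants the change was -0.03 (SE 0.0504, adjusted p = 0.888), and the 2 changes differed by -0.37 (SE 0.0934, adjusted p = 0.0493). The rise in siblings missed the threshold without WT sibling eNMES replicate 3 (0.305, adjusted p = 0.102). The difference of changes missed it without WT sibling control replicate 1 (adjusted p = 0.138) and without WT sibling eNMES replicate 1 (0.106), 2 (0.12) or 3 (0.181). Within *dmd* mutant controls copy II lay at 2140 to 2207 in the 3 libraries with a positive clock component and at 2293 to 2591 in the 5 with a negative one. These sets also follow the replicate number, so the 2 cannot be told apart. In siblings the component split with eNMES, so a fit with it as a covariate cannot separate those either. In that fit the change in siblings was 0.15 (adjusted p = 0.613) and the difference of changes -0.16 (adjusted p = 0.767). The genotype difference with eNMES was -0.265 (adjusted p = 0.0258). The part of the clock state was not tested.

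**Figure D2:**
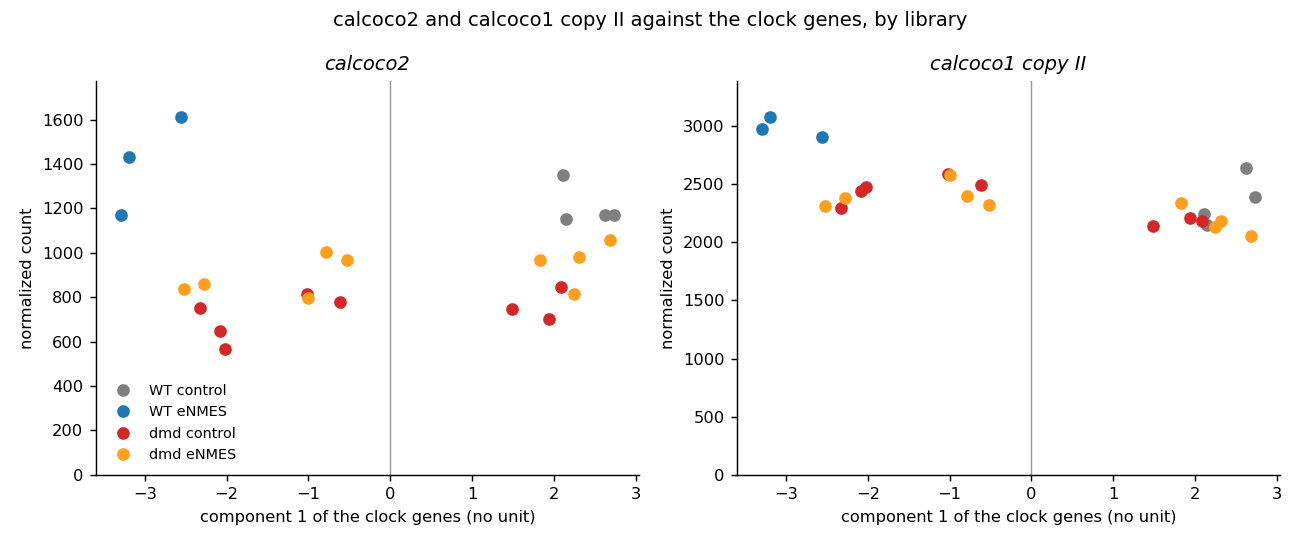
Normalized counts (vertical axes, from 0) of *calcoco2* and *calcoco1* copy II against the first component of 32 clock genes (horizontal axes, no unit), with a point for each of 24 libraries coloured by group. *calcoco2* is lower in *dmd* mutants on both sides of 0, whereas *calcoco1* copy II stands higher in the mutant controls left of 0 (2293 to 2591) than in those right of 0 (2140 to 2207). In mutants the side of 0 also follows the replicate number.

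*sqstm1* encodes p62, the receptor that gathers ubiquitin-marked proteins into aggregates and is itself degraded by autophagy. It had 3051, 2741, 3210 and 3162 counts in WT sibling controls and 2836, 2690 and 2653 in WT siblings with eNMES. In *dmd* mutants the lowest, median and highest counts were 2402, 2639 and 3001 in controls and 2614, 2971 and 3433 with eNMES. All 4 groups overlapped with at least 1 other. The log2 fold change of mutants against siblings was -0.19 (SE 0.0651) in controls, as a description, and 0.11 (SE 0.0719, adjusted p = 0.368) with eNMES. The change with eNMES was -0.16 (SE 0.082, adjusted p = 0.323) in siblings and 0.15 (SE 0.0521, adjusted p = 0.278) in mutants, a difference of 0.31 (SE 0.0972, adjusted p = 0.116). That difference passed without any of 4 libraries, at down to 0.0565, and over 7 other settings its adjusted p ran from 0.0489 to 0.948.

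*optn* encodes optineurin, a receptor for mitochondria and bacteria that is activated by the kinase TBK1. Its counts were 1183, 758.5, 793.1 and 715.4 in WT sibling controls and 629, 564.4 and 549.5 in WT siblings with eNMES. In *dmd* mutants they were 503.4, 582.7 and 827 (lowest, median, highest) in controls and 535, 664.4 and 816.1 with eNMES. Replicate 1 of the WT sibling controls stood alone, and the other 3 controls still lay above all siblings with eNMES. In controls mutants were lower by a log2 fold change of -0.52 (SE 0.13), with 7 of 8 libraries below all siblings, as a description. Without WT sibling control replicate 1 this value was -0.33 (SE 0.122). With eNMES the genotype difference was 0.20 (SE 0.146, adjusted p = 0.438), with 6 of 9 mutant libraries above all siblings.

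In WT siblings *optn* fell by 0.57 on the log2 scale with eNMES (SE 0.167, 1.48-fold, adjusted p = 0.0601, edgeR), and in mutants the change was 0.15 (SE 0.106, adjusted p = 0.68). The 2 changes differed by 0.72 (SE 0.197, adjusted p = 0.0714). Without WT sibling control replicate 1 the change in siblings was -0.39 (adjusted p = 0.203) and the difference of changes 0.54 (adjusted p = 0.171). The change also missed the threshold without WT sibling eNMES replicate 1 (adjusted p = 0.125), 2 (0.165) or 3 (0.185), and the difference of changes did so without any of 11 libraries, at up to 0.211.

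No Atg8 gene of the set passed between the genotypes with eNMES in the main fit. *map1lc3a*, an LC3 gene, had 1390, 1547, 1402 and 1460 counts in WT sibling controls, 1749, 1691 and 1639 in WT siblings with eNMES, and 1258 to 1518 and 1299 to 1713 in the 2 mutant groups. *map1lc3b*, the LC3 gene whose protein is commonly used to mark autophagosomes, had 1951, 2591, 2355 and 2355 counts in WT sibling controls, 2997, 2894 and 2925 in WT siblings with eNMES, and 2366 to 2974 and 2074 to 3320 in the mutant groups. *gabarapa*, a GABARAP gene, kept to the narrow span of 1208 to 1494 counts over all 24 libraries. For both LC3 genes all 3 WT siblings with eNMES lay above all WT sibling controls. How many of all genes part these groups was not counted. *map1lc3b* rose with eNMES in siblings by 0.35 on the log2 scale (SE 0.114, adjusted p = 0.0897), which missed the threshold without any of 7 libraries, with an adjusted p of up to 0.297 without WT sibling control replicate 1. For *map1lc3a* the change was 0.22 (SE 0.0801, adjusted p = 0.122) and for *gabarapa* 0.10 (SE 0.0619, adjusted p = 0.449).

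In mutants the changes with eNMES were 0.09 for *map1lc3a* (adjusted p = 0.562), 0.10 for *map1lc3b* (adjusted p = 0.697) and 0.09 for *gabarapa* (adjusted p = 0.393). With eNMES the genotype differences were -0.18 for *map1lc3a* (SE 0.0695, adjusted p = 0.112), -0.04 for *map1lc3b* (SE 0.0993, adjusted p = 0.868) and -0.07 for *gabarapa* (SE 0.0539, adjusted p = 0.47). That of *map1lc3a* passed without *dmd* mutant eNMES replicate 5 (adjusted p = 0.0848) or 7 (0.0551). In controls these differences were -0.05, 0.21 and -0.07, with standard errors of 0.0644, 0.0923 and 0.0496, as a description.

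*becn1*, the gene for Beclin 1, and *ulk1*, the gene for the initiating kinase, had no difference that passed the test in the main fit. *becn1* lay at 273.4 to 326.8 counts in WT sibling controls, 285.2 to 314 in WT siblings with eNMES, 282.3 to 339.8 in mutant controls and 276.2 to 336.2 in mutants with eNMES. *ulk1* lay at 815.8 to 984.4, 1014 to 1049, 753.5 to 1091 and 781.5 to 1046 counts in the same order. The 4 groups of *becn1* all overlapped. For *ulk1* the 3 WT siblings with eNMES lay above the 4 WT sibling controls, a change that missed the threshold. For *becn1* the log2 fold change was 0.03 between genotypes with eNMES (SE 0.0765, adjusted p = 0.89), -0.03 with eNMES in siblings (SE 0.0873, adjusted p = 0.918) and -0.01 in mutants (SE 0.0558, adjusted p = 0.991). For *ulk1* these values were -0.18 (SE 0.0956, adjusted p = 0.272), 0.175 (SE 0.11, adjusted p = 0.433) and -0.01 (SE 0.0706, adjusted p = 0.979). Over 10 other settings the adjusted p of the first ran from 0.0276 to 0.891. In controls, as a description, mutants and siblings stood 0.01 apart for each gene, with standard errors of 0.07 for *becn1* and 0.0888 for *ulk1*.

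**Figure D3:**
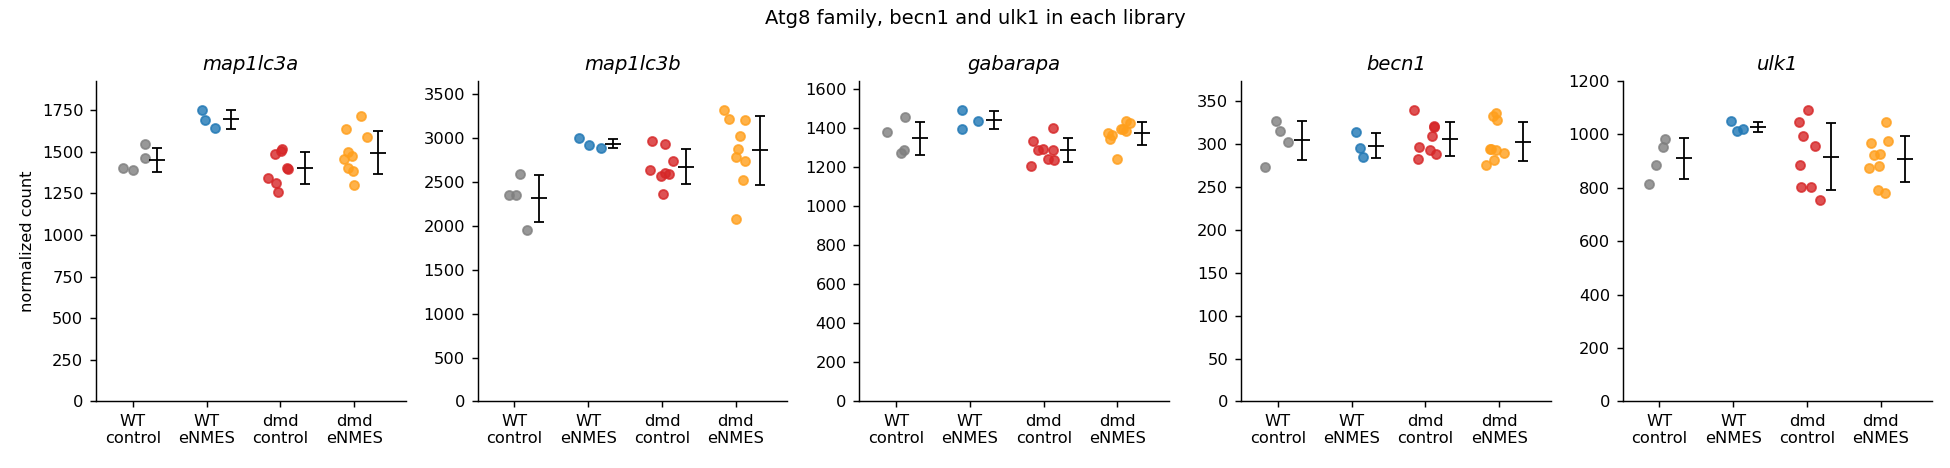
Normalized counts (vertical axes, from 0) of 3 Atg8 genes, *becn1* and *ulk1*, with a point for each library and the mean ± SD beside each group (n as 4, 3, 8 and 9 from left to right). *map1lc3a*, *map1lc3b* and *ulk1* lie higher in the 3 WT eNMES libraries than in the 4 WT controls, but of these only *map1lc3b* passed an adjusted p under 0.1 in edgeR. *becn1* stays between 273.4 and 339.8 throughout.

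*lamp2* encodes a membrane protein of the lysosome that is needed for its fusion with autophagosomes. It had 2235, 2188, 2265 and 2290 counts in WT sibling controls and 1810, 2007 and 1768 in WT siblings with eNMES. In *dmd* mutants the lowest, median and highest counts were 1957, 2135 and 2263 in controls and 1833, 2144 and 2447 with eNMES. The 3 WT siblings with eNMES lay below all WT sibling controls, and both mutant groups spanned much of the range between. *lamp2* fell with eNMES in siblings by 0.27 on the log2 scale (SE 0.079, adjusted p = 0.0582, edgeR), which missed the threshold without WT sibling control replicate 3 (adjusted p = 0.114) or 4 (0.101) and without WT sibling eNMES replicate 1 (0.178) or 3 (0.19). In mutants the change was 0.01 (SE 0.0501, adjusted p = 0.993), and the 2 changes differed by 0.275 (SE 0.0935, adjusted p = 0.147).

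With eNMES *lamp2* was higher in mutants than in siblings by 0.19 (SE 0.0694, adjusted p = 0.0965), opposite in sign to the 3 receptors. This difference missed the threshold without any of 15 libraries, at up to 0.326 without WT sibling eNMES replicate 3. It also missed it with only mutant libraries of a negative clock component (0.125, adjusted p = 0.299). In controls the genotype difference of *lamp2* was -0.09 (SE 0.0628), as a description.

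Counted over the 11 genes, the genotype difference with eNMES passed an adjusted p under 0.1 in 4 genes. *calcoco2* and both copies of *calcoco1* were lower and *lamp2* was higher. Over all genes tested 12.3% passed at any fold change, 6.74% as higher and 5.57% as lower. Only *calcoco2* of the 11 also had a log2 fold change over 0.6 in size, as did 3.94% of all genes together with such a p. The median of the 11 was -0.07, against 0.002 over all genes. Between genotypes with eNMES the exact permutation p was 0.00455 for *calcoco1* copy II and 0.0591 for *lamp2*. In controls, the contrast that chose the set, 4 of the 11 passed, all lower, where 10.9% of all genes passed, 6.56% as higher and 4.3% as lower. In that contrast 1 of the 11, *calcoco2*, was also called by fold, as were 3.12% of all genes, and nothing is read from these counts. By the size of the difference the members nearest to *calcoco2* (-0.73) in controls were *optn* (-0.52), *calcoco1* copy I (-0.44) and *sqstm1* (-0.19), and the other 7 lay between -0.09 and 0.21. Without WT sibling control replicate 1, *optn* (-0.33) came after *calcoco1* copy I (-0.48).

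With eNMES in WT siblings 4 of the 11 passed, *calcoco1* copy II and *map1lc3b* as higher and *optn* and *lamp2* as lower, where 6.48% of all genes passed, 3.12% as higher and 3.36% as lower. All 4 differences were under 0.6 in size, and 2.95% of all genes passed with a larger one. The exact permutation p was 0.0571 for *calcoco1* copy II, *optn* and *map1lc3b*, and 0.0286 for *lamp2*, the smallest that 35 splits allow. At an unadjusted p under 0.05 in edgeR 5 of the 11 passed, against 17.5% of all genes. In WT siblings the clock component split with eNMES, so a fit with it as a covariate cannot separate the 2. In that fit the adjusted p of the 4 lay between 0.543 and 0.844. The log2 fold change of *optn* was then -0.42 (SE 0.225), and those of *calcoco1* copy II, *map1lc3b* and *lamp2* were 0.15, 0.11 and -0.11. In *dmd* mutants 0 of the 10 genes other than *calcoco2* passed in edgeR or in DESeq2, where by edgeR 0.414% of all genes passed, 0.267% as higher and 0.147% as lower, and 0.128% with a fold over the minimum. At an unadjusted p under 0.05 in edgeR the count was 2 of these 10, against 10.3% of all genes. The difference of the 2 changes passed in *calcoco1* copy II, as lower in mutants, and in *optn*, as higher, where 2.81% of all genes passed, 1.59% as higher and 1.22% as lower. *optn* was also over the minimum fold, as were 1.85% of all genes. These comparisons share libraries: both control groups of the eNMES changes also gave the difference that chose the set, and the WT siblings with eNMES entered the genotype difference with eNMES as well as the change in siblings.

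**Figure D4:**
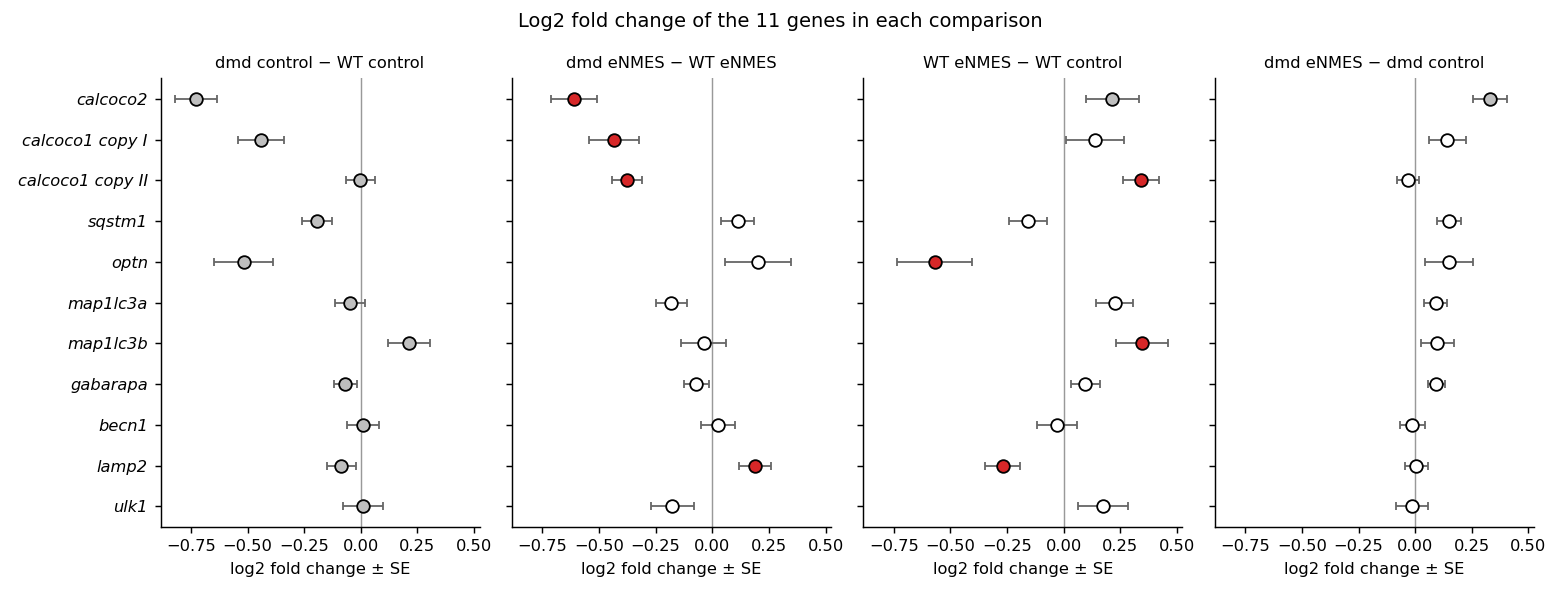
Log2 fold change ± SE (horizontal axes) of the 11 genes in 4 comparisons named above each panel. Red points passed an adjusted p under 0.1 in edgeR, white points did not, and grey points carry no test, since they show the contrast that chose the set or *calcoco2* against controls used in that choice. *calcoco2* lies at -0.73 and -0.61 in the 2 genotype differences, and 4 genes are red in the WT eNMES panel.

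Beyond the 11 genes, 116 other autophagy genes of a list by role were tested. Between genotypes with eNMES 8 of them were higher and 14 lower in mutants, 19.0% against 12.3% of all genes, with a median log2 fold change of -0.06 against 0.002. Of the 11 genes that supply membrane to the autophagosome 2 were higher and 4 lower, of 19 receptors 1 was higher and 4 lower, and of 18 lysosome genes 3 were higher. The 12 conjugation genes lay between -0.34 and 0.23 and the 4 other Atg8 genes between -0.13 and 0.26, short of the threshold. *rab7a* (ENSDARG00000021287), a small GTPase that directs fusion with the lysosome, was the only one called, where 3.94% of all genes were called. Its log2 fold change was 0.63 (SE 0.12, adjusted p = 0.00188). Its lowest, median and highest counts were 199.1, 264.8 and 273.2 in siblings with eNMES and 330.5, 376.3 and 447.9 in mutants with eNMES, which do not overlap. The difference was under the minimum fold without WT sibling eNMES replicate 3 (0.51, adjusted p = 0.0377) or *dmd* mutant eNMES replicate 9 (0.59, adjusted p = 0.00324). It was also under it with the clock covariate (0.53, adjusted p = 0.0197) and with mutant libraries of a negative clock component (0.54, adjusted p = 0.0201). With mutant libraries of a positive clock component it was 0.73 (adjusted p = 0.00163). The symbol is shared by 3 genes, among which reads could be divided, and the others stood at 0.08 (ENSDARG00000020497) and -0.26 (ENSDARG00000087243), short of the threshold.

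The lowest of the list was *tsc1* (ENSDARG00000057918), a brake on the mTORC1 kinase, at -0.57 (SE 0.0598, adjusted p = 1.32e-06), with 3121 to 3165 counts in siblings and 1831 to 2259 in mutants. The highest was *ddit4*, another brake on mTORC1, at 1.24 with an adjusted p of 0.235, spread from 216 to 1505 counts in the mutants. Named after their values were seen, the receptors *nbr1a* (-0.31, adjusted p = 0.00959), *bnip3* (-0.39, adjusted p = 0.018) and *tax1bp1* (ENSDARG00000098288; -0.20, adjusted p = 0.0885) were lower as well, and the other *tax1bp1* gene (ENSDARG00000056856) stood at -0.07. So were *atg14* of the nucleation complex (-0.50, adjusted p = 0.00457) and *atg9b* of the membrane supply genes (-0.42, adjusted p = 0.00374). The receptor gene *phb2* (ENSDARG00000045297) was higher (0.50, adjusted p = 0.00074), while another gene of that symbol (ENSDARG00000017728) stood at 0.004. Also higher was *ctsb*, the lysosomal protease cathepsin B (0.44, adjusted p = 0.00374). Of the genes named as lower, *nbr1a* (0.005), *bnip3* (-0.09), that *tax1bp1* gene (-0.10) and *atg14* (-0.11) did not pass between genotypes in controls. There *atg9b* did, at -0.28 (adjusted p = 0.0345). In WT siblings *nbr1a*, *atg14* and *atg9b* passed as higher with eNMES (0.375, 0.48 and 0.33).

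In controls 2 of the 116 were higher and 6 lower in mutants, 6.90% against 10.9% of all genes, with a median of -0.02. *ctsb* was the highest at 0.53 (SE 0.0837, adjusted p = 0.00029), with 1627 to 1862 counts in siblings and 2200 to 3039 in mutants. *ulk2*, a kinase related to ULK1, was the lowest and the only one called, where 3.12% of all genes were called. It stood at -0.87 (SE 0.269, adjusted p = 0.0595), with 4386 to 5914 counts in siblings and 1587 to 4471 in mutants. This call was lost without WT sibling control replicate 2 (adjusted p = 0.105), 3 (0.172) or 4 (0.101), and with the clock covariate the value was -0.29 (adjusted p = 0.274). In the same contrast 7 of 20 macrophage and neutrophil markers and 7 of 24 fast muscle markers passed as higher, against 6.56% of all genes. Of 10 slow muscle markers 3 passed as higher. Of the fast muscle markers 1 passed as lower. The part of these cell types was not tested.

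In WT siblings eNMES was followed by a rise in 18 of the 116 and a fall in 2, 17.2% against 6.48% of all genes. The share over all genes takes in genes with few counts and was not matched for level. Of the 116, 80 stood above 0, with a median of 0.14 against 0.01 over all genes. *stbd1*, which ties glycogen to autophagy, was called, where 2.95% of all genes were called. Its log2 fold change was 0.71 (SE 0.185, adjusted p = 0.0322), with counts of 127.9 to 150.5 in controls and 192.8 to 250.8 with eNMES. This call was lost without WT sibling control replicate 1 (adjusted p = 0.101) or WT sibling eNMES replicate 1 (0.122) or 3 (0.163), and with the clock covariate (0.66, adjusted p = 0.339). Others that rose, named after their values were seen, were *tfeb*, the transcription factor for lysosome and autophagy genes (0.46, adjusted p = 0.0271), *mcoln1* (ENSDARG00000002285), a lysosomal calcium channel (0.44, adjusted p = 0.0167), *atg14* (0.48, adjusted p = 0.0311), *atg4b* (0.49, adjusted p = 0.0478) and *nbr1a* (0.375, adjusted p = 0.0174). Also higher were *zfyve1* (0.51, adjusted p = 0.0199), *atg4c* (0.42, adjusted p = 0.029), *atg101* (0.35, adjusted p = 0.019) and both *tsc1* genes (0.32 and 0.34, adjusted p = 0.0465 and 0.0112). The receptors *ncoa4* (-0.49, adjusted p = 0.0395), which carries ferritin, and *phb2* (ENSDARG00000045297; -0.30, adjusted p = 0.0853) fell. The other genes with these symbols stood at -0.07 (*mcoln1*, ENSDARG00000058848) and 0.18 (*phb2*, ENSDARG00000017728), short of the threshold. *ddit4* had the lowest value at -1.15, short of the threshold. Apart from *stbd1*, the autophagy genes named here are given without values for the clock covariate or a library left out. With that covariate 96 of all genes were called in WT siblings, in place of 763. In siblings the component split with eNMES, so this fit cannot separate the 2. *nr1d1*, a clock repressor, lay at 970.2 to 1547 counts in these controls and 176.1 to 229.8 with eNMES.

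In *dmd* mutants 2 of the 116 rose with eNMES, 1.72% against 0.414% of all genes, and 101 of the 116 stood above 0, with a median of 0.07 against -0.004 over all genes. These were *ctsla*, the protease cathepsin L (0.25, SE 0.0524, adjusted p = 0.0531), and *retreg1*, a receptor for the endoplasmic reticulum (0.45, SE 0.0986, adjusted p = 0.0595). *retreg1* had 313.7 to 611.4 counts in controls and 511.8 to 776 with eNMES, which overlap. *ddit4* was the highest at 0.55 and *rheb*, the activator of mTORC1, the lowest at -0.20. The 2 changes differed in 5 of the 116, 4.31% against 2.81% of all genes. Of these *ulk2* (1.43, SE 0.416, adjusted p = 0.0941) and *rab7a* (0.63, SE 0.158, adjusted p = 0.0508) were called as higher in mutants. Over all genes 1.85% were called. The call of *ulk2* was lost without any of 18 libraries, at an adjusted p of up to 0.252 without WT sibling eNMES replicate 3, and with the clock covariate its value was 0.02 (adjusted p = 0.997). The call of *rab7a* was lost without WT sibling control replicate 1 (0.52, adjusted p = 0.132) or 3 (0.62, adjusted p = 0.101), WT sibling eNMES replicate 3 (0.51, adjusted p = 0.205), *dmd* mutant control replicate 2 (0.59, adjusted p = 0.0737) or *dmd* mutant eNMES replicate 9 (0.595, adjusted p = 0.0695), and with the clock covariate (0.45, adjusted p = 0.626). In siblings the component split with eNMES, so these covariate fits cannot separate the 2.

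**Figure D5:**
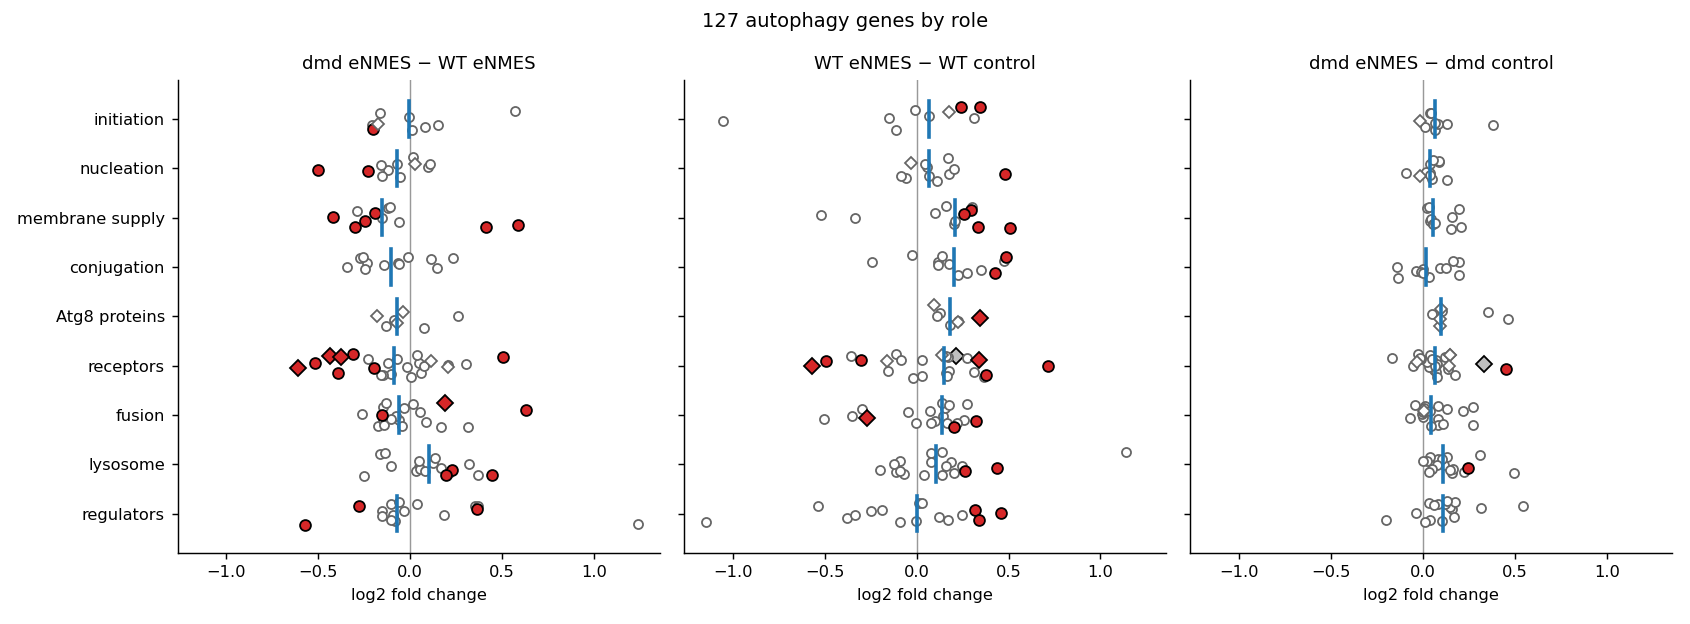
Log2 fold change (horizontal axes) of 127 autophagy genes, in rows by role, for 3 comparisons named above each panel. Diamonds are the 11 genes, circles the other 116, red marks passed an adjusted p under 0.1 in edgeR, the grey diamond (*calcoco2* in the eNMES panels) carries no test, and blue bars are the median of a row. Between genotypes with eNMES receptors and membrane supply genes are red on both sides of 0, and the *dmd* eNMES panel has 2 red marks.

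The genes most like *calcoco2* over the 24 libraries, by Pearson's r on log2 counts among 16516 genes with a symbol, were *mkrn1* (0.91), a ubiquitin ligase, *psmb4* (0.90), a subunit of the proteasome core, *fhod3a* (0.90), a formin that shapes actin in muscle, *psmc1b* (0.89), an ATPase of the proteasome cap, and *nploc4* (0.89), a partner of the p97 segregase. Of the 11 genes *calcoco1* copy I ranked highest, 30th with r = 0.83, followed by *map1lc3a* (0.55) and *sqstm1* (0.46), while *map1lc3b* (-0.02) and *becn1* (-0.02) had no such likeness. These values include the differences between groups and genes that share a library's depth and clock state.

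After each value was set against its group mean the order changed. Among the nearest were then *ptgfrnb* (0.79), *slc25a43* (0.73), a mitochondrial carrier, *smarca4* (0.71), a chromatin remodeller, and *chchd2* (0.70), a mitochondrial protein. Of the 11 genes *sqstm1* (0.53) and *calcoco1* copy I (0.50) were nearest, and *calcoco1* copy II stood at -0.28. Among the members themselves the closest pair within groups was *calcoco1* copy II with *ulk1* (0.76), and the most opposed were *calcoco1* copy II with *optn* (-0.65) and *optn* with *ulk1* (-0.62). In *dmd* mutant controls *ulk1* lay at 802.6 to 1091 counts in libraries with a negative clock component and at 753.5 to 887.1 in those with a positive one. These sets also follow the replicate number.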

How the data were processed

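The authors trimmed paired reads with Trimmomatic, mapped them with bowtie 1.1.2 to the Ensembl release 95 transcriptome and used RSEM 1.2.31 to make the deposited tables, which give estimated counts and TPM for each gene without a filter (GRCz11 in the submitters' processing notes). RSEM shares a read among the genes it fits, so counts of duplicated genes (*calcoco1*, *map1lc3b*, *gabarapa*) depend on that estimate. Counts of the other members were estimates too. They were not whole in 22 of 24 libraries for *calcoco2*, 24 for *sqstm1* and 7 for *becn1*. Estimated counts were rounded, and genes with at least 10 counts summed over the libraries were tested by the quasi-likelihood test of edgeR 4.0.16 (R 4.3.3) with TMM, in 1 fit of 4 groups, in place of the authors' DESeq2 1.22.2. Genes passed at a Benjamini-Hochberg adjusted p under 0.1 over all genes tested and were called where the log2 fold change also exceeded 0.6 in size. Shares over all genes include genes with as few as 10 counts summed over the libraries and were not matched for level. By mean TPM the 11 genes lay at percentiles 73.8 to 97.4 of genes with a TPM above 0. TPM served to compare levels between genes. Exact permutation tests used log2 values with a pseudocount of 1. Where groups are said not to overlap, the share of all genes that do the same was not counted. The procedures were tested on simulated data. Library totals were 7957160 to 22808348 counts, and the biological coefficient of variation was 0.154. The authors' methods call the libraries biological replicates, but no source says whether they came from separate clutches, so p-values measure the spread between these libraries.

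Members and lists were chosen with earlier results of these data known. Text names the members, *dmd*, *nr1d1*, genes of the autophagy list called in any comparison or highest or lowest in it (mean of at least 50 normalized counts), and the 5 genes most like *calcoco2* over the libraries and after centring on group means, of which 1 is not reported here. Other genes of the list that passed were named after their values were seen. Of 128 names on that list 124 matched a gene. Symbols are from the reference, written in lower case. It writes some in capitals and without the letter of a duplicate, and *ulk1* was the match for *ulk1b*. No positions or sequences are given, since the reference here holds names. Alternatives were DESeq2 1.42.0, its size factors in edgeR, filterByExpr, a filter of 1 count, the 2 groups compared alone, the replicate number as a block, other thresholds, the clock component as a covariate, libraries of 1 clock state, and each library left out. Python 3.11.15 with numpy 2.4.6, pandas 2.3.3 and matplotlib 3.10.9 served for values and plots.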

Additional observations from a re-analysis of the deposited data

Results flagged for a closer look

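Of 33 groups of 4 to 10 libraries examined for the 11 genes, 4 had a library far from the rest of its group, and chance alone flags about 1 in 20 groups. *calcoco2* stood at 1349 normalized counts in WT sibling control replicate 4, where the other 3 lay between 1151 and 1172. *optn* stood at 1183 in WT sibling control replicate 1, where the others lay between 715.4 and 793.1. In *dmd* mutant eNMES replicate 10 *sqstm1* stood at 3433, above the other 8 at 2614 to 3008, and *gabarapa* at 1241, below the other 8 at 1344 to 1439.

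The change with eNMES differed between the genotypes for 2 of the 11 genes by a test of the difference in edgeR, which 2.81% of all genes passed. For *calcoco1* copy II the change in *dmd* mutants minus that in WT siblings was -0.37 on the log2 scale (adjusted p = 0.0493), and for *optn* it was 0.72 (adjusted p = 0.0714). The first missed the threshold without any of 4 libraries and the second without any of 11, and both missed it with the clock covariate (adjusted p = 0.767 and 0.662). In WT siblings the effect of eNMES cannot be told apart from that of the clock genes, whose state differed between these groups.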

How the results depend on the processing

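*calcoco2* stayed lower in *dmd* mutants with eNMES in all settings tried, with log2 fold changes of -0.739 to -0.56 (adjusted p 4.22e-06 to 0.00224) and, with a library left out, of -0.73 to -0.49. Of the 11 genes 1 was called between genotypes with eNMES, but 2 with the clock covariate, 4 with no minimum fold change and 0 with mutant libraries of a positive clock component alone. In controls 4 were called with no minimum fold change in place of 1. With eNMES in siblings 4 were called with no minimum fold change in place of 0, and in mutants 1 in place of 0, which was *calcoco2* against controls used to choose the set. For the difference of changes 1 became 2 with no minimum fold change and 0 at an adjusted p of 0.05 or with the clock covariate. With a library left out these counts ran from 0 to 1, 1 to 1, 0 to 1, 0 to 0 and 0 to 1 in the order given. Of the 127 genes 2 were called between genotypes with eNMES, against 26 with no minimum fold change, 8 with positive and 1 with negative clock libraries. In controls 2 were called, against 12 with no minimum fold change and 1 with the 2 groups alone, an adjusted p of 0.05, the clock covariate or positive clock libraries. In siblings 1 was called, against 2 with DESeq2, filterByExpr or the 2 groups alone, 24 with no minimum fold change and 0 with the clock covariate. In mutants 0 were called, against 3 with no minimum fold change. For the difference of changes 3 were called, against 7 with no minimum fold change and 0 at an adjusted p of 0.05 or with the clock covariate. With a library left out the ranges were 0 to 3, 1 to 2, 0 to 2, 0 to 0 and 0 to 5. The counts over all genes moved too. Between genotypes with eNMES 1018 genes were called, against 3181 with no minimum fold change, 774 with the clock covariate, 1741 with positive and 808 with negative clock libraries. In controls 699 were called with the 2 groups alone, 517 at an adjusted p of 0.05, 419 with the clock covariate and 475 with positive clock libraries. In siblings 933 were called with DESeq2, 796 with filterByExpr, 1053 with the 2 groups alone and 96 with the clock covariate. With no minimum fold change 807 became 2805 in controls, 763 became 1675 in siblings and 33 became 107 in mutants. For the difference of changes 477 became 725, 186 at an adjusted p of 0.05 and 14 with the clock covariate. With a library left out the ranges over all genes were 509 to 1121, 491 to 967, 259 to 813, 14 to 59 and 47 to 758. Whether replicate numbers pair the libraries is not settled. The deviations of 22 same-numbered pairs correlated at -0.181 to 0.372, 6 of them over 0.1. Between mutant controls and mutants with eNMES, numbers 2, 3, 4 and 7 correlated at 0.167, 0.322, 0.372 and 0.263. Numbers 5, 6 and 8 stood at 0.078, -0.181 and 0.083, and 2 of 7 mutant controls correlated best with their own number. The main fit used no pairing. With the replicate block 2 of the 11 genes were called between genotypes with eNMES and 1 with eNMES in siblings, and of the 127 genes 4, 4 with eNMES in siblings and 5 for the difference of changes. Over all genes the block gave 769 calls between genotypes with eNMES, 1058 in siblings and 765 for the difference of changes. The block turned the sign of *becn1* (-0.038), *sqstm1* (-0.008) and *map1lc3b* (0.091) between genotypes with eNMES and of *lamp2* with eNMES in mutants (-0.033). The clock covariate turned the difference of changes of *calcoco2* (-0.12), the genotype difference with eNMES of *becn1* (-0.10), *map1lc3b* (0.10) and *sqstm1* (-0.026), the change in siblings of *becn1* (0.19), *sqstm1* (0.07) and *ulk1* (-0.061), and the change in mutants of *lamp2* (-0.012) and *ulk1* (0.011). Libraries of a negative clock component turned *becn1* (-0.035) and *map1lc3b* (0.049) between genotypes with eNMES and *lamp2* in mutants (-0.033), and those of a positive one *ulk1* in mutants (0.051). With a library left out, values near 0 changed sign: *becn1* (-0.006 to 0.072) and *map1lc3b* (-0.067 to 0.012) between genotypes with eNMES, *becn1* in siblings (-0.081 to 0.007) and in mutants (-0.033 to 0.012), and *lamp2* (-0.023 to 0.032) and *ulk1* (-0.049 to 0.026) in mutants. All of these sign changes were in values that passed no test, and the cause of the changes was not tested. Over all settings, in 21 cases a value of a member that had missed the threshold passed it, and in 78 cases one that had passed missed it. For the clock states within siblings and for the difference of changes within 1 state or in 2 groups alone no fit could be made. Comparisons in siblings rest on 7 libraries, and counting error was not separated from the spread between libraries.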
